A study of Rattus norvegicus with 48 samples.

Results

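The left ventricles of methamphetamine-treated male rats were compared between 24 h after the last injection (day 11) and 30 days of subsequent abstinence. Members were chosen by label: male, methamphetamine-treated, replicates 1, 2, 3, 4 and 6 of each time point. This gave 10 of the 47 libraries with counts. The series holds 48 Sprague Dawley rats of both sexes, treated with saline or methamphetamine and collected at the same times. All 10 animals received 5 mg/kg methamphetamine per day by subcutaneous injection for 10 days, starting at 8 weeks of age, so that the abstinent rats were also older at collection. The day 11 group (5 rats) and the abstinence group (5 rats) carried rat numbers of a single series in the labels. Hearts were removed in the morning, flushed of blood and frozen, and polyadenylated RNA was sequenced from a stranded library per animal.

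Methamphetamine is a psychostimulant that releases catecholamines and raises cardiac workload. The heart also has its own circadian clock, in which the activators ARNTL (BMAL1), CLOCK and NPAS2 drive the PER and CRY repressors, the REV-ERB receptors (Nr1d1, Nr1d2) repress Arntl, and the factors DBP, TEF and NFIL3 carry the rhythm to output genes. Transcripts of the activators and of the repressors peak at opposite times of day in the heart. Abstinence in this design asks which of the transcript levels seen just after the drug differ a month after its withdrawal.

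Counts on genes totalled 9161526 to 11314050 per library at day 11 and 7592188 to 9296312 after abstinence, and the 10 most abundant genes held 15.2% to 17.5% of them. All day 11 libraries were sequenced in a single pool and all abstinence libraries in another, so that pool, time and age cannot be told apart. Depth was lower after abstinence and overlapped that of day 11 only through replicate 6 of abstinence. Its part was not tested. Replicate 5 of each group was left out, since 4 male-specific genes stood there at 7.26% and 12% of the level of other males and 2 female-specific genes at 90.3% and 106% of that of females. The 10 libraries kept had 93% to 115% and 0.383% to 2.07%. Replicate 1 of the abstinence group lay farthest from its group median over all genes (1.46 times the median distance), followed by replicate 6 (1.32 times). Of the marker lists for cell types, just 3 genes had a symbol, and none differed: Ptprc, the pan-leukocyte marker CD45, ran from 19.4 to 27.9 counts per 1000000 (CPM) at day 11 and from 22.7 to 28.7 CPM after abstinence. Pdgfrb, a pericyte receptor, ran from 126 to 157 and from 128 to 147 CPM. Myl4, an atrial myosin light chain, was at 2.3 to 3.62 CPM at day 11 and at 0.758 to 4.31 CPM after abstinence. The ventricular, fibroblast and endothelial markers had no symbol in the sources used here, so the tissue label was not checked against them.

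Between day 11 and abstinence, 136 of 13700 genes tested (0.993%) changed at a Benjamini-Hochberg adjusted p under 0.1 (edgeR quasi-likelihood test). Of these, 73 (0.533%) were higher after abstinence and 63 (0.46%) were lower. The changes were small: their median size was 0.47 on the log2 scale, and 14 genes rose and 6 fell by 2-fold or more. The median log2 fold change over all genes was 0, and 80.8% of genes lay within 0.2 of it. In 114 of the called genes the 5 day 11 libraries did not overlap the 5 abstinence libraries, which held for 2.66% of all genes tested. The count ranged from 60 to 198 when each library was left out in turn. It moved by more than 1.5 times without replicate 1 (73 genes), 2 (60 genes) or 6 (79 genes) of day 11, or replicate 2 (67 genes) or 3 (81 genes) of abstinence, and was 198 without replicate 6 of abstinence. With replicate 5 of both groups put back as labelled, 29 genes were called. Scaling by total counts alone, which moved the median of all genes to -0.03, called 182 genes, of which 35.2% were higher, against 53.7% here.

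**Figure D1:**
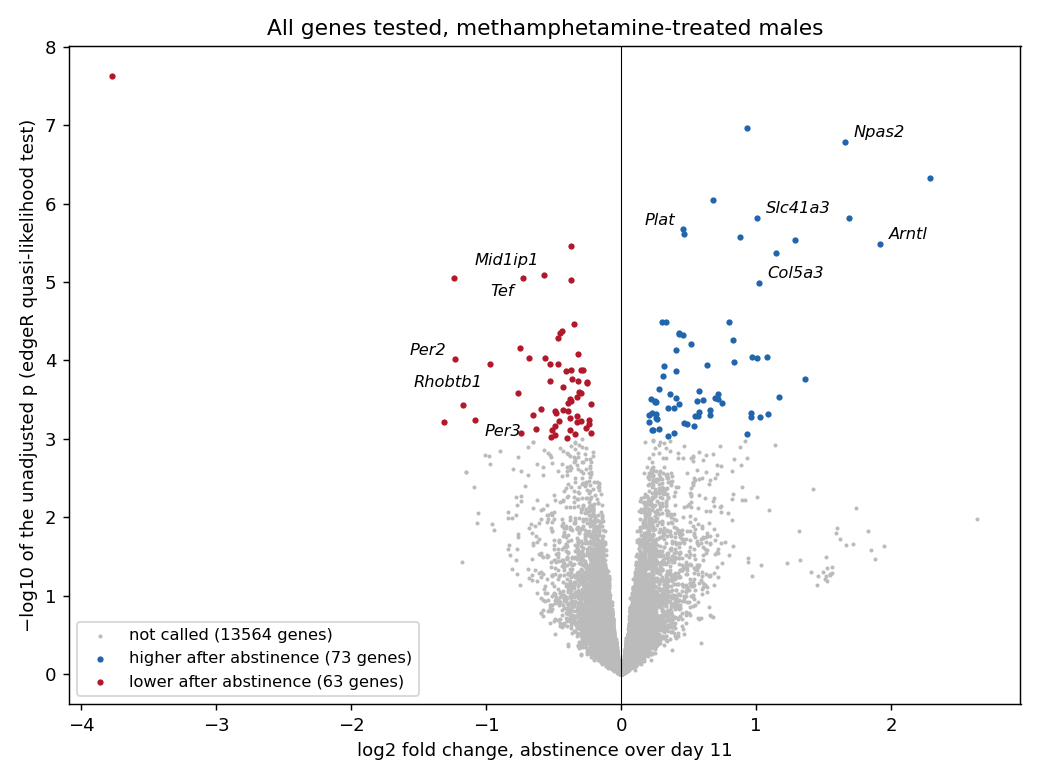
Each point is a gene of the 13700 tested in methamphetamine-treated males, with the log2 fold change of abstinence over day 11 on the horizontal axis and the −log10 of the unadjusted p on the vertical axis. Blue marks the 73 genes called higher after abstinence and red the 63 called lower, and labels name some of those with a symbol, with Npas2 and Arntl far to the right.

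Symbols were known for 328 of the tested genes, all of them named by the study because methamphetamine differed from saline in the same series, day 11 males included. Of these genes 39 were called (11.9%), against 0.725% of the genes without a symbol. That difference follows a list chosen on these libraries and is not independent evidence that drug-responsive genes are the ones that move.

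The circadian clock genes held the largest changes among genes with a symbol. Of 14 clock genes with an identifier, 3 rose (the activators Arntl, Npas2 and Clock), 3 fell (the repressors Per2 and Per3, and the output factor Tef) and 8 did not pass the test. These 6 calls among 14 genes stand beside 0.993% of all genes tested and 11.9% of the genes with a symbol, the pool from which the 14 come. The median log2 fold change of the 14 was -0.34, against 0 over all genes tested. Between 4 and 7 of them were called when each library was left out in turn, and 0 with replicate 5 put back.

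**Figure D2:**
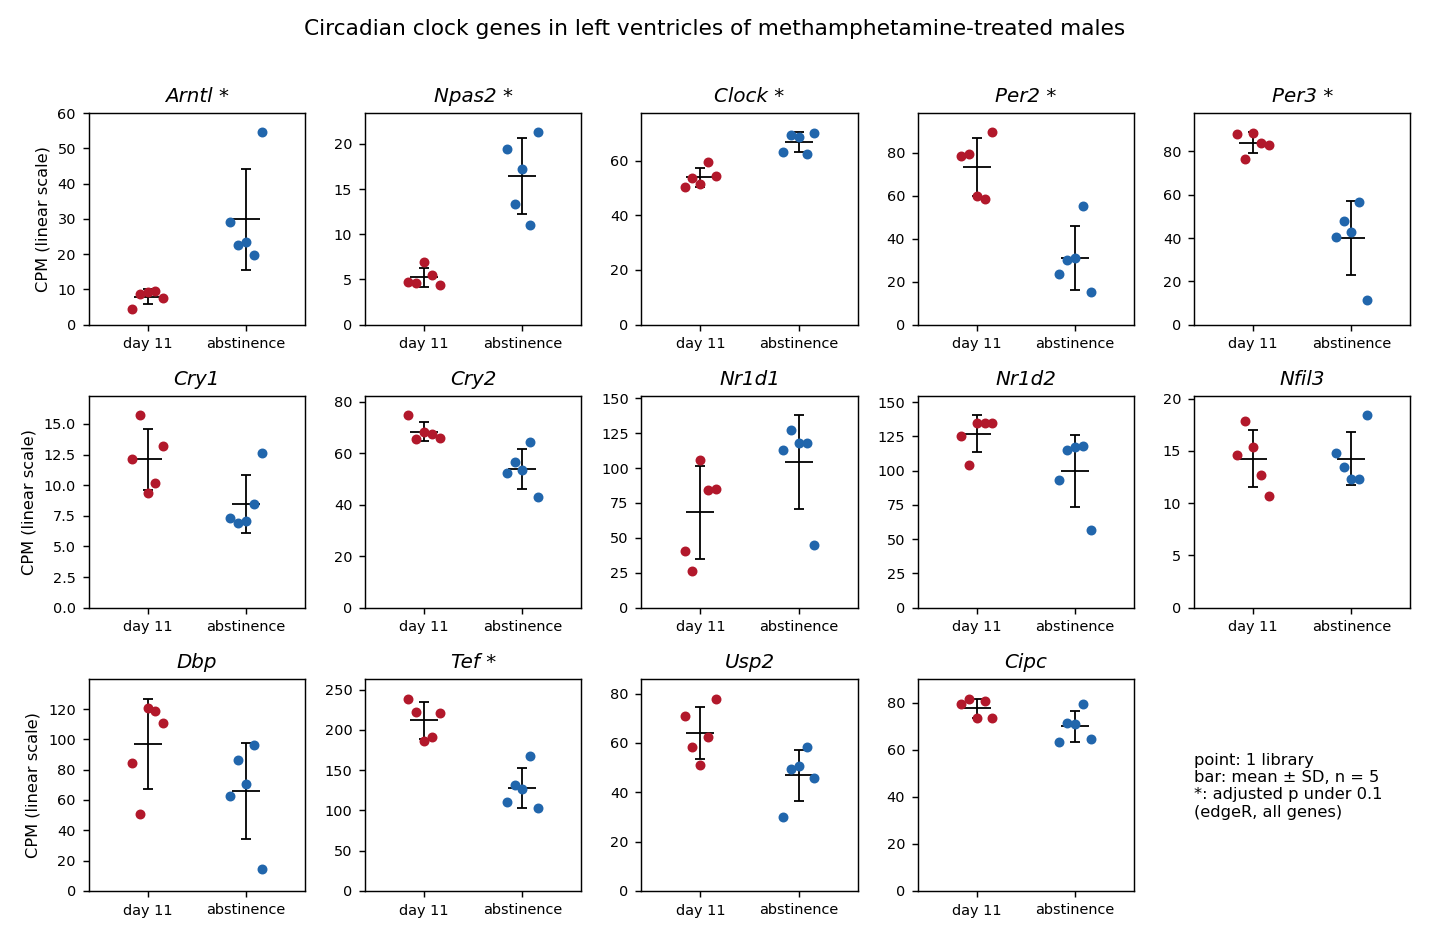
Expression in CPM (linear axis from 0) of the 14 clock genes in the 5 day 11 libraries (red) and the 5 abstinence libraries (blue) of methamphetamine-treated males, with the mean and SD as bars and an asterisk for an adjusted p under 0.1. Arntl and Npas2 are higher in all abstinence libraries than in any day 11 library, Per2 and Per3 are lower in all, and the groups overlap for Nr1d1, Dbp and Nfil3.

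Arntl, which encodes the core activator BMAL1, stood at 4.37, 8.63, 9.27, 9.58 and 7.5 CPM in replicates 1, 2, 3, 4 and 6 of day 11. After abstinence it stood at 29.1, 22.5, 23.4, 19.7 and 54.6 CPM. The groups did not overlap, and replicate 6 of abstinence was far above the other 4. The log2 fold change was 1.92 ± 0.27 (SE), or 3.77-fold higher, with an adjusted p of 0.00367. Npas2, the partner of BMAL1 that can take the place of CLOCK, went from 4.7, 4.58, 6.92, 5.44 and 4.43 CPM to 19.4, 13.4, 17.2, 11 and 21.3 CPM. Its lowest abstinence library was above its highest day 11 library. The log2 fold change was 1.66 ± 0.18, with an adjusted p of 0.000757, the lowest of the genes with a symbol. Clock itself differed less, at 50.5 to 59.6 CPM at day 11 and 62.4 to 70.2 CPM after abstinence, which is 0.31 ± 0.06 on the log2 scale (adjusted p = 0.0414). Its call was lost without replicate 1 or 2 of day 11 or replicate 2 of abstinence, with an adjusted p of up to 0.118.

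Of the PER and CRY repressors, Per2 and Per3 passed the test and Cry1 and Cry2 did not. Per2 was at 78.7, 79.5, 60.1, 58.5 and 89.6 CPM at day 11 and at 23.7, 30.3, 31.1, 55.2 and 15.3 CPM after abstinence. All abstinence libraries were below all day 11 libraries, with replicate 4 close to them. Per2 fell by 1.23 on the log2 scale (SE 0.23, adjusted p = 0.0328). Per3 was at 88, 76.7, 88.7, 84.1 and 82.9 CPM and then at 40.7, 48.1, 42.8, 56.6 and 11.4 CPM. It fell by 1.08 (SE 0.25), with replicate 6 of abstinence lowest. The adjusted p of Per3 was 0.0722, and the call was kept only without replicate 4 or 6 of abstinence among the 10 fits that left out a library, with an adjusted p of up to 0.164 in the others. Cry1 and Cry2 did not pass the test, at log2 fold changes of -0.51 ± 0.18 and -0.34 ± 0.09 (adjusted p of 0.258 and 0.106), although the Cry2 libraries did not overlap (65.4 to 74.7 CPM at day 11 and 43 to 64.2 CPM after abstinence). Cry2 was called with DESeq2 (-0.34, adjusted p = 0.0221) and without replicate 4 of abstinence (-0.41, adjusted p = 0.0362). Calls also came with voom (adjusted p = 0.0902), by total counts alone (0.068) and without a filter (0.0615), and in none of the remaining fits. Without replicate 6 of abstinence, which held the highest Cry1 of its group (12.6 CPM), Cry1 was called (-0.7 on the log2 scale, adjusted p = 0.0485).

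Of the factors that bind D-boxes, Tef was at 239, 222, 186, 191 and 221 CPM at day 11 and at 110, 131, 126, 167 and 103 CPM after abstinence. These groups did not overlap, and Tef fell by 0.73 (SE 0.11, adjusted p = 0.00708). Dbp was at 84.2, 51, 121, 119 and 111 CPM and then at 62.6, 86.3, 70.7, 96 and 14.4 CPM. The Dbp groups overlapped, and its log2 fold change of -0.56 ± 0.34 did not pass the test (adjusted p = 0.557). Nfil3, the repressor at the same sites, had a log2 fold change of 0 ± 0.14, with 10.7 to 17.9 CPM at day 11 and 12.3 to 18.4 CPM after abstinence.

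Nr1d1, which encodes REV-ERB alpha, was at 40.8, 26.3, 106, 84.2 and 84.7 CPM at day 11 and at 113, 127, 118, 118 and 44.8 CPM after abstinence. Replicates 1 and 2 of day 11 and replicate 6 of abstinence stood below the rest, and the difference did not pass the test (log2 fold change 0.61 ± 0.32, adjusted p = 0.491). With day 11 limited to replicates 1 and 2, the lowest of its libraries, Nr1d1 was called at 1.64 (adjusted p = 0.0915). The same fit ended the calls of Per2 (-1.35, adjusted p = 0.134), Per3 (-1.05, 0.404) and Clock (0.36, 0.164). Arntl, Npas2 and Tef kept theirs. Nr1d2, Usp2 (a deubiquitinase under clock control) and Cipc (a CLOCK-interacting repressor) were also not called, at -0.35 ± 0.15, -0.45 ± 0.14 and -0.15 ± 0.07. Replicate 6 of abstinence held the highest Arntl, Npas2, Clock, Cry1 and Nfil3 and the lowest Per2, Per3, Tef, Dbp, Nr1d1, Nr1d2 and Cry2 of its group. Without it, 7 of the 14 clock genes were called, and the log2 fold changes of Arntl, Npas2, Per2 and Per3 were 1.57, 1.54, -1.05 and -0.83. The study states that all hearts were taken within a single short window of the morning. The hour of collection of each animal is not given in the labels, and its part in these differences was not tested.

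The promoters of the clock genes are known for 3 short motifs: the E-box bound by CLOCK and BMAL1, the element bound by ROR and REV-ERB receptors, and the D-box. RefSeq promoters (build GRCr8, 250 bases before to 50 after the start of the gene) were found for 12 of the 14 clock genes and searched on both strands. The E-box CACGTG was held by 2 of the 12 (Nr1d1 and Tef), against 6.42% of all 33469 promoters. The half-site AGGTCA was held by 3 of the 12 (Arntl, Nr1d2 and Usp2), against 16.2%, and the D-box TTATGTAA or TTACGTAA by Per2 alone, against 1.01%. Arntl, Per2 and Tef were the called clock genes with a motif, and 100 bases of the promoter of each are shown 5′ to 3′ on the strand of the gene, with the motif in capitals. Arntl is on chr1:176766228-176766327 (plus strand, under the symbol Bmal1), Per2 on chr9:99497132-99497231 (minus strand) and Tef on chr7:115206582-115206681 (plus strand).
Arntl: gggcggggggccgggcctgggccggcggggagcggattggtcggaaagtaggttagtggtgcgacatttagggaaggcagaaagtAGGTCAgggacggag
Per2: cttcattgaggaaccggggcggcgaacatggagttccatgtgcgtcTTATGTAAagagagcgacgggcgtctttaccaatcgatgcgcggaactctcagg
Tef: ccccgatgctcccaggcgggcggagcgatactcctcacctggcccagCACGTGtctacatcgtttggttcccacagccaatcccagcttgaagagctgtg

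Promoters were found for 31 of the 38 symbols called, and 5 of them (16.1%) held CACGTG, against 6.42% of all promoters. Besides Tef these were Asb2, Rev1, Rhobtb1 and Slc41a3. AGGTCA was held by 5 of the 31 (16.1%), against 16.2% of all promoters, and the D-box by 1 (3.23%), against 1.01%. The 100 bases around the E-box are shown for the pair with the largest change, Slc41a3 on chr4:124684721-124684820 (plus strand), which rose, and Rhobtb1 on chr20:19402058-19402157 (minus strand), which fell. The share among all genes with a symbol, the pool from which the clock genes and the called genes come, was not taken. A match is a description of these letters and not evidence of binding.
Slc41a3: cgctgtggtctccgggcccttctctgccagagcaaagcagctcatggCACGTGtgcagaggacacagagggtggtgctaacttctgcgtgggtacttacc
Rhobtb1: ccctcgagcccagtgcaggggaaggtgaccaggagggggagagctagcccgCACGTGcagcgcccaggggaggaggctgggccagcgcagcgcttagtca

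Outside the clock, 19 identifiers with a symbol rose. Slc41a3, a member of the SLC41 family of magnesium transporters, was at 45, 55.5, 61.1, 73.6 and 72.7 CPM at day 11 and at 125, 113, 112, 108 and 162 CPM after abstinence. Every abstinence library was above every day 11 library, and the log2 fold change was 1.01 ± 0.13 (adjusted p = 0.00301). Plat, which encodes tissue plasminogen activator, went from 80.6, 78.6, 83.3, 66.8 and 81.1 CPM to 103, 103, 107, 111 and 115 CPM. These libraries did not overlap, and their spread was narrow (log2 fold change 0.47 ± 0.06, adjusted p = 0.00363). Tgm2, the crosslinking enzyme transglutaminase 2, went from 288, 280, 304, 329 and 299 CPM to 398, 368, 347, 379 and 390 CPM. The log2 fold change of Tgm2 was 0.33 ± 0.06 (adjusted p = 0.0203). Plat and Tgm2 were called under all 14 alternatives and in all 10 fits that left out a library.

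Cx3cl1, Rhoj, Asb2 and Thra also rose, each with groups that did not overlap. Cx3cl1, the membrane-bound chemokine fractalkine, went from 32.8 to 43.3 CPM at day 11 to 49.1 to 67.5 CPM (log2 fold change 0.52 ± 0.09, adjusted p = 0.0274). Rhoj, a small GTPase of endothelial cells, had a log2 fold change of 0.46 ± 0.08, from 29.4 to 35 CPM to 38.6 to 49.4 CPM. Asb2, a subunit of a ubiquitin ligase of muscle, went from 578, 668, 499, 548 and 581 CPM to 841, 747, 740, 695 and 850 CPM (log2 fold change 0.43 ± 0.08, adjusted p = 0.0229). Thra, the thyroid hormone receptor alpha, rose from 82.9 to 99.3 CPM to 108 to 123 CPM (log2 fold change 0.32 ± 0.06, adjusted p = 0.0353, or 0.108 without replicate 2 of day 11). Thra overlaps Nr1d1 on the opposite strand, and whether counting used the strand is not given in the sources used here, so reads in the overlap may be shared.

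Fcgr2a, an Fc receptor of myeloid cells, appeared under 2 identifiers, at log2 fold changes of 0.97 ± 0.18 and 1.01 ± 0.19 (adjusted p of 0.0328 for each). Near-identical copies may share reads, so they are uncertain as separate genes. The first ran from 16.1 to 19.6 CPM at day 11 and the abstinence libraries from 24.6 to 58.2 CPM, the highest being replicate 6, whereas the leukocyte gene Ptprc had a log2 fold change of 0.04 ± 0.1 in the same libraries. Calhm5, of a family of large-pore channels, had a log2 fold change of 0.83 ± 0.15, from 8.55 to 16.3 CPM to 18.1 to 29.2 CPM. LOC103694908 had 1.08 ± 0.2, at 3.62 to 5.2 CPM and then 6.73 to 14.7 CPM. Fam220a (0.43 ± 0.08), Tmem140 (0.41 ± 0.08), RGD1563354 (0.41 ± 0.09), Eepd1 (0.39 ± 0.09), Prr13 (0.36 ± 0.08), Tspan18 (0.28 ± 0.07) and Sh3bp5 (0.21 ± 0.05) made up the remainder but for Col5a3, described with the matrix genes. Of these, RGD1563354, Eepd1, Prr13, Tspan18 and Sh3bp5 kept their call in 4, 4, 5, 3 and 2 of the 10 fits that left out a library.

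A further 14 genes with a symbol fell. Mid1ip1, a regulator of acetyl-CoA carboxylase in fatty acid synthesis, was at 147, 145, 108, 121 and 124 CPM at day 11 and at 81.8, 85.8, 92.7, 96.1 and 77.2 CPM after abstinence. All abstinence libraries were below all day 11 libraries (log2 fold change -0.57 ± 0.09, adjusted p = 0.00708). Rhobtb1, an atypical GTPase that serves cullin-3 ubiquitin ligases, went from 115, 120, 80.8, 74.7 and 148 CPM to 47.8, 51.2, 50.3, 81.3 and 44.3 CPM. Its groups overlapped through replicate 4 of abstinence, and its log2 fold change of -0.97 ± 0.19 passed the test (adjusted p = 0.0348). Tspan4, a tetraspanin, and LOC100911766 had nearly the same values, from 27.3 to 35.2 CPM to 15.4 to 23.4 CPM and from 30.8 to 37.8 CPM to 17 to 26.1 CPM. Their log2 fold changes were -0.56 ± 0.11 and -0.53 ± 0.1, and whether the pair share reads was not tested.

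Of the other genes that fell, Ephx1, the microsomal epoxide hydrolase, had a log2 fold change of -0.65 ± 0.15 (adjusted p = 0.0687). Herpud1, a part of the degradation machinery of the endoplasmic reticulum, had -0.41 ± 0.08, from 186 to 247 CPM to 139 to 182 CPM. Its adjusted p was 0.0371, and up to 0.115 without replicate 1 or 2 of day 11. Sesn1, a sestrin that restrains mTORC1, had -0.33 ± 0.07, and Pik3ip1, an inhibitor of PI3 kinase, had -0.37 ± 0.07. Car14, a membrane-bound carbonic anhydrase, had the smallest fall of the called genes with a symbol, -0.25 ± 0.05, with 92.9 to 103 CPM at day 11 against 79.4 to 82.9 CPM after abstinence. Rapgef5 (-0.49 ± 0.11), Cldn12 (-0.48 ± 0.11), C1qtnf7 (-0.46 ± 0.11) and Rev1 (-0.4 ± 0.1) followed. Leaving out a library ended the call of Ephx1 in 7 of 10 fits, of Rapgef5 in 6, of C1qtnf7 in 7, of Rev1 in 9, of Sesn1 in 5, of Cldn12 and Car14 in 4 and of Pik3ip1 in 2, whereas Mid1ip1, Rhobtb1, Tspan4 and LOC100911766 were called in all 10.

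Of 15 genes of the extracellular matrix with an identifier, Col5a3 rose, Adamts12 fell and 13 did not pass the test. These 2 calls among 15 genes are near the 11.9% called among all genes with a symbol, the pool from which the members come (0.993% of all genes tested). Their median log2 fold change was 0.16, against 0 over all genes tested. Col5a3, the alpha 3 chain of type V collagen, was at 18.8, 15.5, 29.7, 26.8 and 29.7 CPM at day 11 and at 52.9, 44.6, 48.4, 40.4 and 58.3 CPM after abstinence. The groups did not overlap, and replicates 1 and 2 of day 11 were the lowest (log2 fold change 1.02 ± 0.16, adjusted p = 0.00742). Adamts12, a secreted metalloproteinase, changed by -0.39 ± 0.08 on the log2 scale (adjusted p = 0.0586), and its call was kept in 5 of the 10 fits that left out a library. Spon2 (0.73 ± 0.18), Mmp14 (0.51 ± 0.17), Eln (0.36 ± 0.16) and Emilin1 (0.32 ± 0.1) had positive values that did not pass the test (adjusted p of 0.11 to 0.403). The type IV and VI collagen genes Col4a1, Col4a2 and Col6a1 had log2 fold changes of 0.02 ± 0.06, 0.04 ± 0.07 and 0.05 ± 0.11.

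Of the other lists, few members had a symbol and few were called, beside 11.9% of the genes with a symbol and 0.993% of all genes tested. Among 4 glucocorticoid-responsive genes 0 were called: Tsc22d3 (GILZ) had -0.57 ± 0.14 (adjusted p = 0.115, but called with DESeq2, with voom and without replicate 3 of day 11 or replicate 4 or 6 of abstinence), Zbtb16 -0.5 ± 0.38, Cdkn1a 0.29 ± 0.17 and Glul -0.17 ± 0.12. Zbtb16 was at 10.8 to 15.3 CPM in 4 day 11 libraries and at 52.4 CPM in replicate 6. Among 5 genes of glucose use 0 were called, with Slc2a12 at -0.39 ± 0.11, Slc2a4 (GLUT4) at -0.09 ± 0.05 and Slc2a1 (GLUT1) at 0 ± 0.11. Herpud1 was the single call among 2 stress-response genes, with Dnajb4, a co-chaperone, at -0.31 ± 0.11, and Sesn1 the call of the oxidative stress list. None was called among the sarcomere genes Lmod2 (-0.09 ± 0.1) and Hspb7 (0.04 ± 0.05), the channel genes Kcnk3 (0.12 ± 0.07) and Gja1 (0.08 ± 0.07), the interferon-induced gene Gbp1 (-0.1 ± 0.1), or the immediate early genes Ier3 (-0.18 ± 0.09) and Klf10 (0.28 ± 0.14). The same held for Ucp3, a mitochondrial carrier of fatty acid use (0.46 ± 0.24), the receptor kinase Grk5 (0.04 ± 0.07) and the chromatin protein Hmgb2 (0.05 ± 0.12). Lists for oxidative phosphorylation, ribosomal proteins and the growth hormone and IGF axis had 0 members with an identifier. None of these counts comes from a test of the list.

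The other 97 called genes had no symbol. ENSRNOG00000010478 had the lowest p and the largest fall, with 46, 55, 41, 35 and 29 counts at day 11 and 6, 2, 1, 1 and 2 counts after abstinence. The libraries were far apart, at a difference of -3.77 ± 0.36 on the log2 scale (adjusted p = 0.000323), but the gene ran from 0 to 48 counts among the 29 libraries of the other 6 groups. ENSRNOG00000031004 had 58, 68, 49, 68 and 31 counts and then 18, 19, 18, 17 and 23 counts (log2 fold change -1.24 ± 0.19, adjusted p = 0.00708). ENSRNOG00000019587 rose from 4, 7, 5, 11 and 9 counts to 32, 28, 21, 43 and 23 counts (log2 fold change 2.29 ± 0.27, adjusted p = 0.00163). ENSRNOG00000021091 rose from 14, 12, 20, 18 and 17 counts to 47, 35, 52, 48 and 35 counts (log2 fold change 1.69 ± 0.22, adjusted p = 0.00301). The last 3 ran from 11 to 50, from 4 to 50 and from 5 to 71 counts in the other groups, ranges that hold most of their values here.

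Saline-treated males give the same time contrast without the drug. There 202 of 13717 genes (1.47%) were called. The treated and saline comparisons share no library, but they share both pools. Of the 136 genes called in treated males, 13 were also called in saline-treated males (9.56% of the first list and 6.44% of the second), 11 of them in the same direction. Of the 135 tested in saline-treated males, 85 (63%) had the same direction, against 47.3% of all genes. Across 13554 genes the log2 fold changes of the comparisons had a Pearson r of 0.011, given as a description. The saline-treated males of day 11 came from another series of rat numbers than every other male group, so that in the saline contrast, and in the test of the difference, time and rat series cannot be told apart.

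The time difference itself differed between treated and saline-treated males for 87 of 14081 genes (0.618%), 43 of them with a higher value in treated males. This count fell to between 32 and 56 without replicate 1, 2 or 4 of either treated group, without replicate 1, 4 or 6 of the abstinent saline group or without replicate 2 of the day 11 saline group. Of these 87 genes 33 had a symbol, and 23 were among the 136. The symbols come from the study's comparisons of methamphetamine with saline, which used libraries of this test. Nr1d1, Cry1 and Nfil3 were named there because they differed between abstinent treated and abstinent saline-treated males. Their calls here are not independent of that choice. The clock genes Cry1, Nr1d1, Cry2, Nfil3, Nr1d2 and Npas2 were called in this test. Nr1d1 had a log2 fold change of 0.61 in treated males and -1.71 in saline-treated males, a difference of 2.32 (adjusted p = 0.0278). Its saline mean was 93.3 ± 26.6 CPM (SD, n = 5) at day 11 and 28.5 ± 5.34 CPM after abstinence, against 68.4 ± 33.4 CPM and 104 ± 33.5 CPM in treated males. Cry1 had -0.51 and 0.97, a difference of -1.48 (adjusted p = 0.0191), and Cry2 had -0.34 and 0.34, a difference of -0.68 (adjusted p = 0.0361). Nfil3 had 0 and 0.93, Nr1d2 had -0.35 and -1.23, and Npas2 had 1.66 and 0.53, with adjusted p of 0.0922, 0.0941 and 0.0982.

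The remaining clock genes did not pass this test. Arntl also rose in saline-treated males, from 27 ± 10.9 CPM to 60.1 ± 5.51 CPM (adjusted p = 0.0339), and its log2 fold change differed between treatments by 0.76 (adjusted p = 0.382). Per3 had -1.08 in treated and -1.79 in saline-treated males (adjusted p of the difference 0.403), and Per2 had -1.23 and -0.78 (0.576). Dbp had -0.56 and -2.48, a difference of 1.92 that did not pass the test (0.147). Its saline level was 70.2 ± 40.3 CPM at day 11 and 12.7 ± 2.39 CPM after abstinence. Tef had -0.73 and -0.18 (0.165).

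Plat, Tgm2, Col5a3 and RGD1563354 rose in treated males, and their log2 fold changes were higher there than in saline-treated males. RGD1563354 had 0.41 in treated and -0.18 in saline-treated males (difference 0.58, adjusted p = 0.0402). Plat was at 117 ± 14.4 CPM at day 11 and 105 ± 13.4 CPM after abstinence with saline, against 78.1 ± 6.52 CPM and 108 ± 5.16 CPM with the drug (difference of the log2 fold changes 0.63, adjusted p = 0.033). Tgm2 was at 398 ± 16.5 and 379 ± 19.6 CPM with saline, against 300 ± 18.8 and 376 ± 20.1 CPM (difference 0.4, adjusted p = 0.0361). Col5a3 was at 60.1 ± 5.37 and 65.3 ± 2.68 CPM with saline, against 24.1 ± 6.56 and 48.9 ± 7 CPM (difference 0.91, adjusted p = 0.0402). In these 3 genes the drug group of day 11 had the lowest mean of the 4 male groups, and the saline log2 fold changes were -0.17, -0.07 and 0.12, none of them called. Cldn12, a tight junction protein, showed the opposite order, at 17.1 ± 1.01 and 19.4 ± 1.67 CPM with saline against 22.9 ± 2.56 and 16.4 ± 2.37 CPM (difference -0.67, adjusted p = 0.0434). Clip1, a microtubule-binding protein, had the lowest p of the test among genes with a symbol, at -0.15 in treated and 0.5 in saline-treated males (difference -0.66, adjusted p = 0.0159). Treated and saline levels come from separate normalizations.

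**Figure D3:**
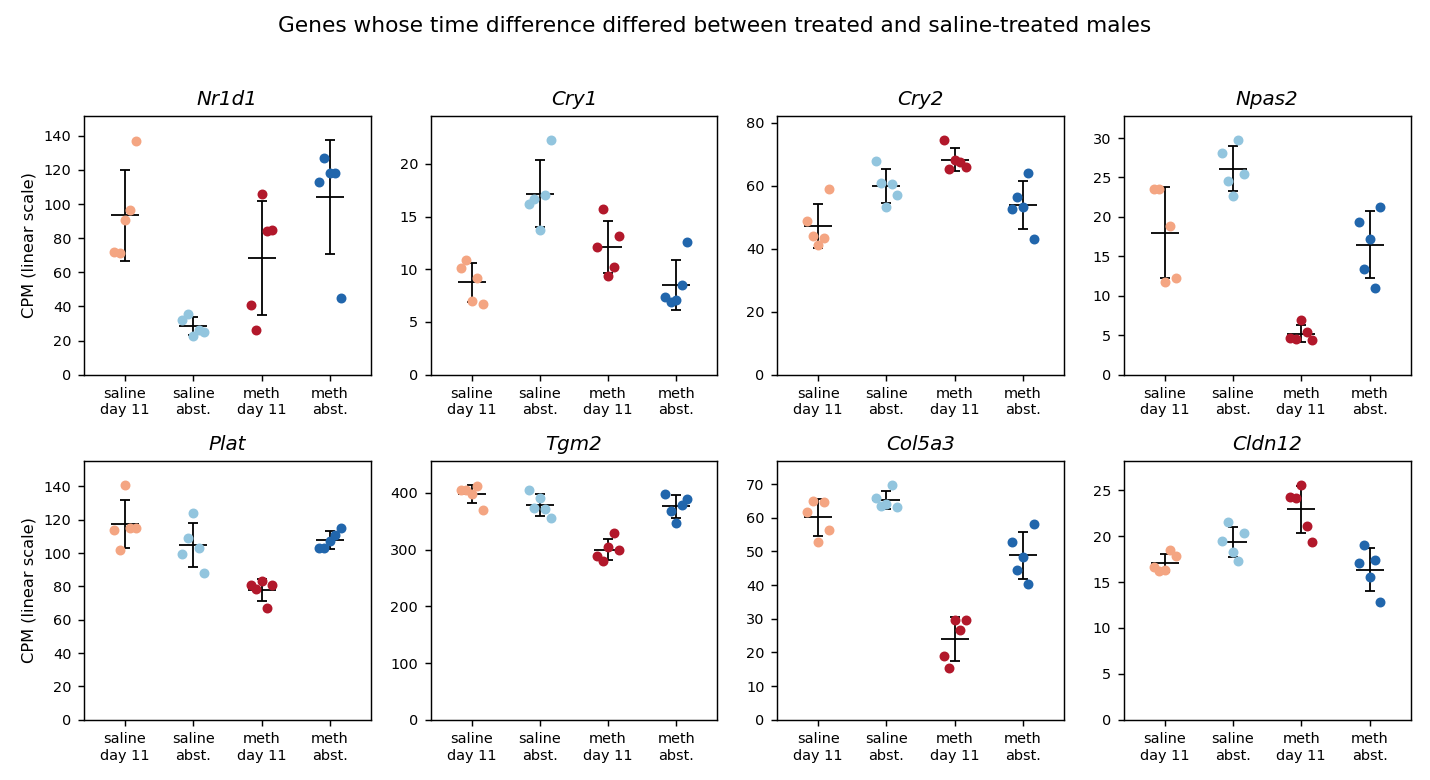
Expression in CPM (linear axis from 0) of 8 genes called in the test of the difference, in saline-treated and methamphetamine-treated (meth) males at day 11 and after abstinence (abst.), with 1 point per library and bars for the mean and SD (n = 5). Plat, Tgm2 and Col5a3 are lowest in the day 11 drug group, and Nr1d1 falls between the times with saline but not with the drug.

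Methamphetamine-treated females give the same contrast in the other sex. There 485 of 13736 genes (3.53%) were called between the same times. Of the 136 genes called in males, 58 were called in females too (42.6% of the male list and 12% of the female list), all 58 in the same direction. Of the 134 tested in females, 118 (88.1%) had the same direction, against 65.1% of all genes, and the Pearson r over 13561 genes was 0.26, given as a description. In saline-treated females, with 4 libraries at day 11 and 5 after abstinence, 327 of 13688 genes (2.39%) were called. Of the 136 genes, 22 were called there and 12 of these in the same direction. Of the 135 tested there, 71 (52.6%) had the same direction, against 56.2% of all genes. These comparisons share pools but no library, and the abstinent females include rats of the other number series.

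Arntl had a log2 fold change of 1.92 ± 0.27 in treated males and 3.75 in treated females, where its mean went from 2 ± 0.347 CPM to 27.2 ± 16.7 CPM. Npas2 had 1.66 and 2.09, Per2 -1.23 and -1.74, Per3 -1.08 and -1.31, and Tef -0.73 and -1.1. Slc41a3 had 1.01 and 1.72, Col5a3 1.02 and 1.39, Rhobtb1 -0.97 and -1.38, and Mid1ip1 -0.57 and -0.85. The size of the change was larger in females for each of these genes. It was smaller in females for others, among them Plat (0.47 in males and 0.35 in females), Asb2 (0.43 and 0.36) and Adamts12 (-0.39 and -0.03). The test of the difference between the sexes called none of the genes just named (adjusted p of 0.382 to 0.999). That test called 4 of 14100 genes (0.0284%), none with a symbol, and 1000 genes had an unadjusted p under 0.05. Of the 4, ENSRNOG00000010478 (difference -6.64, adjusted p = 0.0013), ENSRNOG00000031004 (-2.08, 0.0314) and ENSRNOG00000021091 (2.89, 0.0525) were also among the 136. The test uses the same 10 male libraries, so this overlap is not independent. ENSRNOG00000010478 did not pass the filter in treated females alone, with 0 to 4 counts at day 11 and 1 to 27 counts after abstinence. Leaving out replicate 2 of the abstinent females raised the number of genes called by the test to 53, against 2 to 10 without any other library, and DESeq2 called 59.

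**Figure D4:**
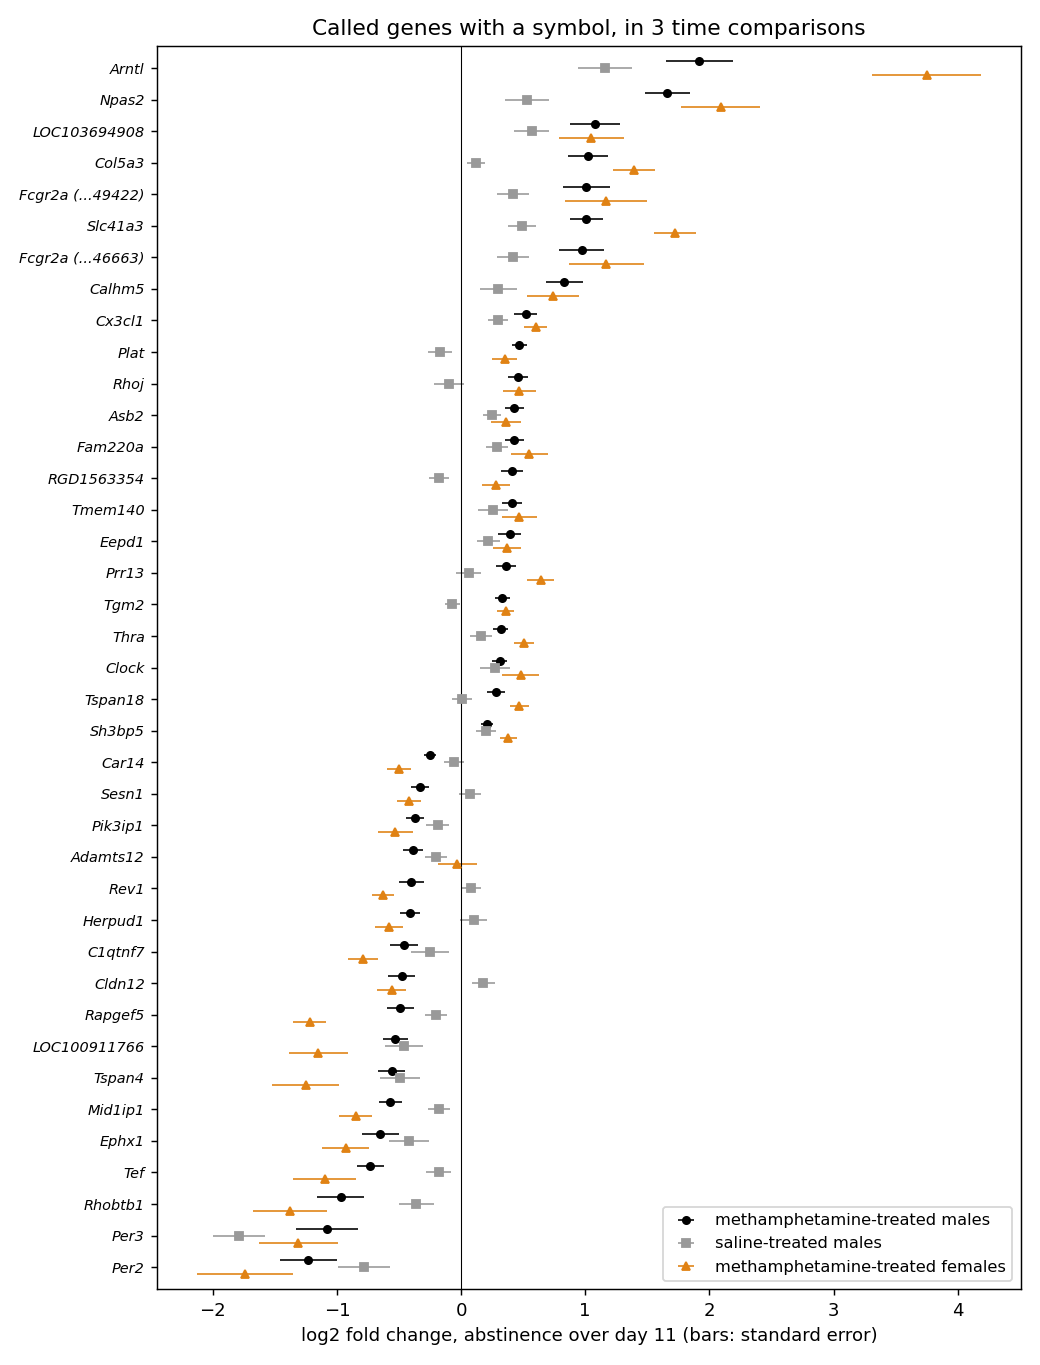
Log2 fold change of abstinence over day 11, with the standard error as a bar, for the 39 called identifiers with a symbol in methamphetamine-treated males (black circles), saline-treated males (grey squares) and methamphetamine-treated females (orange triangles). The orange triangles lie on the same side of 0 as the black circles for all of them, with Adamts12 near 0, and the grey squares lie nearer to 0 for most genes.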

How the data were processed

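Left ventricular RNA from each rat was sequenced after poly(A) selection with a stranded kit, in 1 pool per time point. Per the labels and the methods of the study, reads were trimmed with Trimmomatic 0.38, aligned to Rnor_6.0 with HISAT2 2.1.0 and counted over genes with GenomicAlignments. The authors deposited the raw count of each of 32883 Ensembl genes per library, and a second table of signal normalized across libraries (submitters' notes: DESeq2 1.20.0). How counting treated strand and reads of several genes is not given in the sources used here. The raw count table held 47 libraries, those of the other groups included. It lacked 1 saline-treated female of day 11.

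Counts of the 10 libraries were filtered with filterByExpr, scaled by TMM and tested with edgeR 4.0.16 (R 4.3.3) by the quasi-likelihood test, with Benjamini-Hochberg adjustment over all genes tested and a call at an adjusted p under 0.1. CPM values use the TMM-scaled library sizes. The saline male, treated female and saline female comparisons were fitted in the same way on their own libraries, and differences of the time effect as interaction terms over 4 groups. Each library came from its own animal. No library pair was a duplicate: the chi-square per degree of freedom was 2.32 to 11.7 over 20 within-group pairs. Replicate 5 of each treated male group was left out because its sex-specific genes go against its label, and replicate 5 was left out of the other groups as well. Code was tested on simulated data.

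Named genes were, among those called, the 10 with the largest and the 10 with the smallest log2 fold change (mean of at least 2 CPM), the 10 with the smallest p, up to 6 called and 3 uncalled members per list, all clock genes, and the 5 with the smallest p of each interaction. All called genes with a symbol are given besides, and 1 uncalled list member is not reported here. Of genes without a symbol, the 2 that rose and 2 that fell named by most parts of that rule are given. The libraries, lists and tests were chosen with earlier results of these data known. Symbols were paired with 328 identifiers through lists in the study, which chose those genes on these samples.

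Alternatives were DESeq2 1.42.0, limma 3.58.1 (voom with quality weights, and trend on log2 of the deposited signal plus 1 or 0.1), RLE or no scaling, an adjusted p under 0.05, every gene with a count, 10 counts or more throughout, a replicate block, a single fit of all groups, replicate 5 included, day 11 limited to replicates 1 and 2 (rat numbers next to those of the abstinent rats), and each library left out. Leaving out libraries for the clock list was added after the data were seen. Promoters came from RefSeq (GRCr8), a build other than that of the counts.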

Additional observations from a re-analysis of the deposited data

Results flagged for a closer look

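In 13 of 150 groups of 5 libraries (75 genes), 1 library stood apart from the other 4 by Dixon's criterion, which chance alone passes in about 5% of groups. Replicate 6 of abstinence was that library in 8 of the 13. There Arntl was at 54.6 CPM (next 29.1), Nr1d1 at 44.8 CPM (next 113), Cry1 at 12.6 CPM (next 8.49), Fcgr2a (ENSRNOG00000046663) at 58.2 CPM (next 32.2), Cdkn1a at 72.9 CPM (next 45.7), Col6a1 at 289 CPM (next 206), Kcnk3 at 176 CPM (next 158) and LOC100911766 at 17 CPM (next 23.7). Replicate 1 of abstinence held ENSRNOG00000010478 at 0.761 CPM (next 0.226), and replicate 4 held Rhobtb1 at 81.3 CPM (next 51.2). At day 11, Zbtb16 was at 52.4 CPM in replicate 6 (next 15.3), Klf10 at 20.7 CPM in replicate 3 (next 13.9) and Plat at 66.8 CPM in replicate 4 (next 78.6).

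The log2 fold change between the times differed between treated and saline-treated males, as an interaction term, for 17 of the genes described. It was higher in treated males by 2.39 for ENSRNOG00000019587, 2.32 for Nr1d1, 1.13 for Npas2, 0.91 for Col5a3, 0.88 for Nr1d2, 0.63 for Plat, 0.58 for RGD1563354 and 0.4 for Tgm2. The difference was negative for ENSRNOG00000010478 (-5.58), Cry1 (-1.48), ENSRNOG00000031004 (-1.27), Gbp1 (-0.93), Nfil3 (-0.93), Slc2a12 (-0.77), Cry2 (-0.68), Cldn12 (-0.67) and Clip1 (-0.66). Rat series and treatment cannot be told apart in these differences, since the saline-treated males of day 11 came from another series. Between treated males and treated females the difference was -6.64 for ENSRNOG00000010478, -2.08 for ENSRNOG00000031004 and 2.89 for ENSRNOG00000021091. ENSRNOG00000010478 did not pass the count filter in the separate fits of saline-treated males or of treated females.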

How the results depend on the processing

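Of the 43 called genes described, 25 were called in all 10 fits that left out a library. In the other alternatives 490 of 598 values kept their call, 108 lost it and 0 reversed. Of the 43 genes, just 5 were called in all of these alternatives that gave them a value. The adjusted p under 0.05 and the fit limited to fewer day 11 rats were set aside for that count. Among the 5 were ENSRNOG00000010478 and ENSRNOG00000019587, which had a value in 12 of the 14 alternatives and were not tested in the others. Low counts limit the 4 genes without a symbol, and the causes of the changes given here were not tested.

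In treated males 136 genes were called (73 higher, 63 lower). The counts were 308 with DESeq2 (162 and 146), 275 with voom (144 and 131), 206 without a filter (101 lower), 182 by total counts (118 lower), 86 with all groups in a single fit (35 lower), 58 at an adjusted p under 0.05 (31 and 27), 29 with replicate 5 (18 and 11) and 63 with day 11 limited to replicates 1 and 2 (26 and 37). Of these last 63, 35 were among the 136. Leaving out a library gave 60 to 198 genes, 37 to 101 higher and 23 to 97 lower.

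Replicate numbers did not pair the samples (r of same-numbered libraries from -0.14 to 0.051, 0 of 5 best with its own number). The replicate block called 70 genes (37 and 33), 61 of them among the 136. In the tests of the difference from saline-treated males and from females, the block called 88 and 3 genes.

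The clock list had 6 members called, 0 with replicate 5 and 4 to 7 without a library. The other lists had 4 called, 8 with DESeq2, 2 at an adjusted p under 0.05, 2 in the single fit and 1 with replicate 5.

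The difference from saline-treated males called 87 genes, 265 with DESeq2 (127 and 138), 214 with voom (111 and 103), 37 at an adjusted p under 0.05 (19 and 18), 59 in the single fit (28 higher) and 21 with replicate 5 (7 and 14). Leaving out a library gave 32 to 108 (16 to 58 higher, 16 to 61 lower). The difference from females called 4 (1 and 3), 59 with DESeq2 (18 and 41), 53 with voom (30 and 23), 27 in the single fit (8 and 19), 7 without a filter (6 lower), 7 with replicate 5 (3 higher), 2 with at least 10 counts (0 higher) and 2 at an adjusted p under 0.05 (0 higher). Leaving out a library gave 2 to 53 (0 to 23 higher, 2 to 30 lower).

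Signs that reversed were all of genes not called. Col4a1 was at -0.01 by total counts. With replicate 5, Myl4 was at 0.72 and Ptprc at -0.04. With day 11 limited to replicates 1 and 2, Zbtb16 was at 0.22, Myl4 at 0.2, Ptprc at -0.05 and Ucp3 at -0.14. Leaving out a library gave Col4a1 values from -0.02 to 0.06, Col4a2 from -0.01 to 0.08, Col6a1 from -0.08 to 0.12, Hmgb2 from -0.03 to 0.13, Myl4 from -0.21 to 0.25, Ptprc from -0.04 to 0.09 and Zbtb16 from -0.67 to 0.19.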

Other observations

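A bound of 1.3 on the log2 fold change, chosen after the values were seen, was passed by 27 genes that were not called. All 27 were higher after abstinence, and 0 had a symbol. In 23 of them the highest library was replicate 1 of abstinence, at 3.32 to 9.94 times the next library. Their summed level was 1151 CPM in that library and between 32 and 267 CPM in the other 9.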
